A study of Mus musculus with 5 samples.

Results

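Genes that mark tumor macrophages and monocytes were examined in 5 RNA sequencing libraries of the mouse Lewis lung carcinoma line LLC. The 29 genes described were chosen by name as known genes of these cells, with earlier results of these data known. All 29 were found among the 13979 gene symbols that the deposited tables share. The libraries stood for Control, BMN, PAZA, BMN/PAZA low dose and BMN/PAZA high dose, with 1 library per group. BMN is an inhibitor of the DNA repair enzyme PARP, and PAZA is a polymer that carries azacytidine, which inhibits DNA methyltransferases. In the combined treatments PAZA was the carrier of BMN, and the labels give the 2 doses as low and high without amounts. The labels do not give the dose of BMN or PAZA used alone. A legend of the study puts BMN, PAZA and the low dose combination at the same dose, so low dose against BMN or PAZA is at matched doses by that source, and high dose against BMN is not.

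The labels describe LLC cells kept in culture and treated for 72 h, whereas the methods of the study describe tumors taken after the last treatment from C57BL/6 mice that carried LLC cells. A culture of carcinoma cells would hold no leukocytes. Here all 7 leukocyte markers, among them PTPRC (the CD45 antigen) and ITGB2 (an integrin chain of leukocytes), stood above 0 in all 5 libraries, with summed levels of 203 to 344. Whether a library came from 1 tumor or from several is not given in the sources used here. In bulk RNA, fewer cells of a type and less RNA per cell cannot be told apart, which holds for every value below.

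Macrophages in a tumor come in part from blood monocytes, which carry the chemokine receptor CCR2 and the surface protein Ly6C, and which enter tissue along a gradient of CCR2 ligands such as CCL2. After entry they lose Ly6C and gain C1q, scavenger receptors and lysosomal enzymes, under the receptor for colony stimulating factor 1. Macrophages that take up dying cells and lipid carry TREM2 and apolipoprotein E. Nitric oxide, made by inducible nitric oxide synthase, is a product of macrophages under inflammatory stimuli, and chitinase-like proteins are made by macrophages under the opposite, alternative stimuli.

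Levels are called scaled levels here. The tables state no unit, and their values were read from their form as FPKM, which divides the fragments of a gene by its length and by the size of the library. Each library was then brought to the same sum over the shared symbols. Levels of different genes are set side by side on that reading, as values per length. A difference between libraries is the difference of log2(scaled level + 1), which understates the change of low genes, and a gene is counted as higher or lower when this difference passes 2-fold. The ratios of levels given beside it are taken without the added 1. There was no replicate of any library, the tables give no read counts, and so no test, no error and no counting interval can be given for any value.

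Across the 29 genes, the levels within a library spanned a wide range. Osteopontin, SPP1, a secreted glycoprotein that carcinoma cells as well as macrophages can make, was the highest of the 29 in every library, with levels of 6264 in Control, 5451 in BMN, 5365 in PAZA, 4770 in low dose and 3995 in high dose. The fractalkine receptor CX3CR1, found on patrolling monocytes and resident macrophages, was between 0.146 in low dose and 0.581 in BMN, below 1 in every library. The BMN library held the highest level of 12 of the 29 genes, PAZA of 8, low dose of 5, Control of 3 and high dose of 1. The high dose library held the lowest level of 15 of the 29, Control of 7, low dose of 4, BMN of 2 and PAZA of 1.

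This count depended on the scaling. The transcripts MT-RNR1, MT-RNR2 and RN7SK, which are ribosomal RNAs of mitochondria and a small nuclear RNA, together took 38.1% of the sum of the high dose library, 35.2% of low dose and 29.4% to 31.8% of the other 3. When libraries were scaled by the median ratio of genes instead, the high dose library held the lowest level of 6 of the 29 genes and Control that of 10, the most of the 5 libraries, while BMN held the highest level of 10 and PAZA of 9. The part of these abundant RNAs in the order of the libraries was not tested beyond this change of scale.

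**Figure D1:**
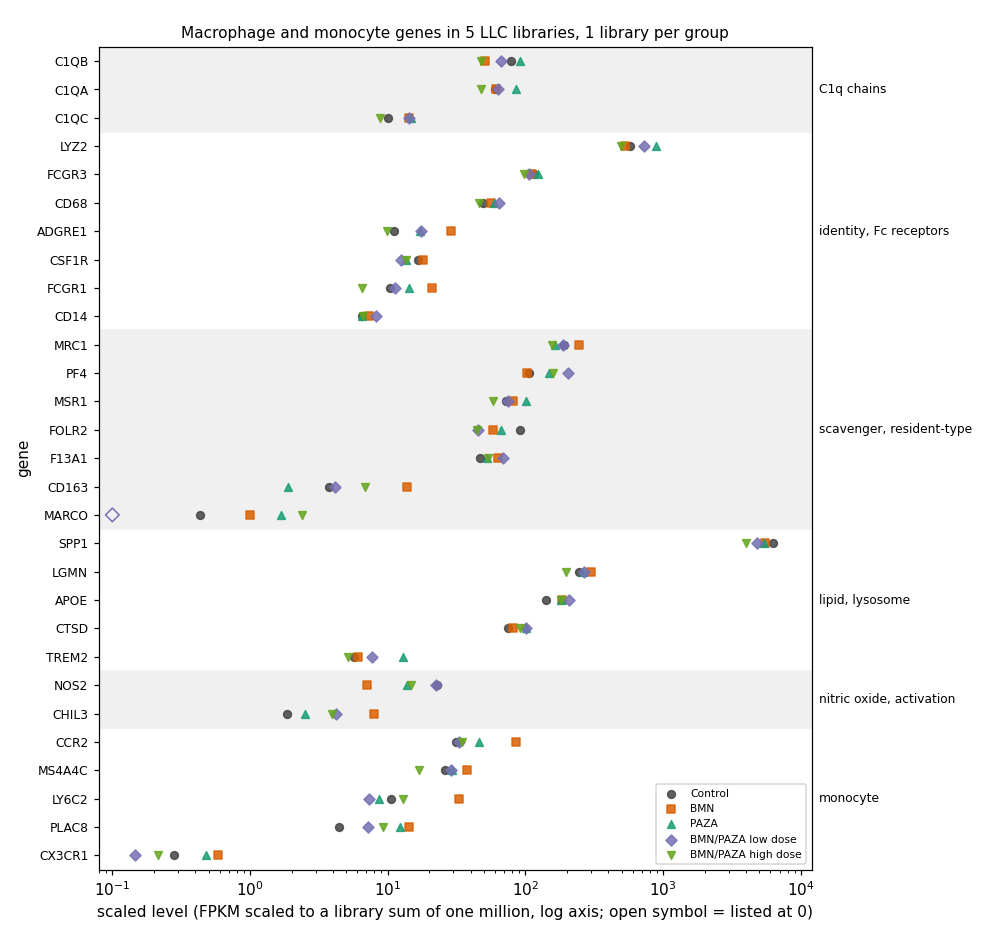
Scaled level (log axis) of each of the 29 genes, grouped by role, with 1 symbol per library and an open symbol for a value listed at 0. For CCR2, LY6C2, ADGRE1 and CD163 the BMN library lies to the right of the other 4, and for MARCO the low dose library is listed at 0.

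The 5 monocyte genes are described first. CCR2, the receptor that brings monocytes into tissue, had scaled levels of 31.2 in Control, 85.5 in BMN, 46.0 in PAZA, 32.7 in low dose and 34.8 in high dose. LY6C2, one of the genes of the Ly6C antigen of inflammatory monocytes, stood at 10.5 in Control, 32.8 in BMN, 8.64 in PAZA, 7.30 in low dose and 12.9 in high dose. For both genes the BMN library was apart on the high side, with CCR2 at most 46.0 and LY6C2 at most 12.9 in the other 4. PLAC8, a cysteine-rich protein abundant in monocytes and other myeloid cells, was at 4.44 in Control, 14.3 in BMN, 12.4 in PAZA, 7.21 in low dose and 9.23 in high dose, so that Control was the lowest and BMN and PAZA were the highest. MS4A4C, a membrane protein of the tetraspan family, was at 26.05 in Control, 37.6 in BMN, 29.0 in PAZA, 28.5 in low dose and 16.9 in high dose. Here the high dose library was apart on the low side.

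Because CCR2, LY6C2 and PLAC8 differed together between BMN and Control, their promoters are shown, from RefSeq on GRCm38.p6, each 5′ to 3′ from 250 bases before to 50 after the gene's start in RefSeq. Capitals mark GAGGAA or its reverse complement TTCCTC, the core that the myeloid factor PU.1 and other ETS factors can bind. The LY6C2 window lies on the minus strand at chr15:75111922-75112221, that of CCR2 on the plus strand at chr9:124101933-124102232 and that of PLAC8 on the minus strand at chr5:100572156-100572455. The other GRCm38 annotation used here starts CCR2 at base 124101950, inside the printed window, so most of that window lies within the gene by that annotation.
LY6C2: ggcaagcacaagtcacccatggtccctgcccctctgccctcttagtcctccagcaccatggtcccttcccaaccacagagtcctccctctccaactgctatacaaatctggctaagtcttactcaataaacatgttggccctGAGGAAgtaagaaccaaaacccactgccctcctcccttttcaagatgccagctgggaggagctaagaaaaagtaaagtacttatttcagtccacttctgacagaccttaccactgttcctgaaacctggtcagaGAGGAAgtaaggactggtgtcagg
CCR2: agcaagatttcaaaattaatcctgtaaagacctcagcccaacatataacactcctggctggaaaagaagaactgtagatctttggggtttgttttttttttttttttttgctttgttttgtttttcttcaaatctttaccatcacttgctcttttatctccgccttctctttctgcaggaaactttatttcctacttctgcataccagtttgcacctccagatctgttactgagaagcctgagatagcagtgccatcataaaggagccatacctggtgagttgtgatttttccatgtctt
PLAC8: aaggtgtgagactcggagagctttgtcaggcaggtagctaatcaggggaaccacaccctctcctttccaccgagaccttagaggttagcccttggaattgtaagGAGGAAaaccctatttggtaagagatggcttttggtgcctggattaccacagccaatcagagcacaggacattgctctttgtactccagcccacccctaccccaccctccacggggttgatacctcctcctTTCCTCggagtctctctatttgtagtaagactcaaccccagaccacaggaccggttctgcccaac

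The windows of LY6C2 and PLAC8 held 2 matches each, and that of CCR2 held 0. On either strand, GAGGAA was found in 15 of the 23 member promoters present in the table (65.2%) and in 28.3% of all 27025 promoters of the same length. A second ETS-type word, GGAAGT, which can overlap GAGGAA by its letters GGAA, was found in 12 of the 23 (52.2%) and in 24.1% of all promoters. A match of 6 letters is a description of the sequence and not a binding site. The promoters of ADGRE1, C1QA, CSF1R, CD14, MSR1 and NOS2 were not used here.

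LY6C2 has a near-identical neighbor, LY6C1, which endothelium and other cells also express, and how fragments were divided between the pair is not known. LY6C1 had scaled levels of 226 in BMN and 248 in Control, and 251 in PAZA, 331 in low dose and 340 in high dose. The ratio of LY6C2 to LY6C1 was 0.145 in BMN and between 0.0221 and 0.0423 in the other 4, so the higher LY6C2 of BMN was not matched in its neighbor. This pair was set side by side after the values had been seen.

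Genes of macrophage identity varied less. CD68, a glycoprotein of macrophage lysosomes, had scaled levels of 49.1 in Control, 55.9 in BMN, 59.1 in PAZA, 64.7 in low dose and 45.8 in high dose. CSF1R, the receptor for colony stimulating factor 1 on which macrophage survival depends, was at 16.5, 18.0, 13.5, 12.4 and 13.6 in the same order. CD14, the lipopolysaccharide coreceptor, lay between 6.49 in Control and 8.19 in low dose. For each of these 3 genes, the highest library was less than 1.5 times the lowest. LYZ2, the lysozyme of myeloid cells, was the second highest gene of the 29 and ran from 498 in high dose to 888 in PAZA. Its neighbor LYZ1 was between 1.19 and 4.19.

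ADGRE1, which encodes an adhesion receptor widely used as a macrophage antigen, differed from these genes. Its scaled levels were 11.02 in Control, 28.6 in BMN, 17.1 in PAZA, 17.6 in low dose and 9.87 in high dose, with BMN alone at the top. Of the Fc receptors, which bind antibody-coated targets, FCGR1 (the high affinity receptor for IgG) was at 10.4 in Control, 20.9 in BMN, 14.2 in PAZA, 11.3 in low dose and 6.46 in high dose. FCGR3, a low affinity receptor, was nearly level, between 98.1 in high dose and 122 in PAZA. The ratio of FCGR1 to FCGR3 was therefore 0.187 in BMN and 0.0659 in high dose, with the other 3 libraries between 0.0911 and 0.116. The inhibitory receptor FCGR2B, related in sequence to FCGR3, was between 137 in high dose and 168 in BMN. FCGR4, an activating receptor, was highest in Control at 14.5, with 12.7 in PAZA, 8.90 in high dose, 8.01 in BMN and 5.51 in low dose.

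The chains of C1q, the recognition part of the classical complement pathway that macrophages secrete, are encoded by neighboring genes on the minus strand of chromosome 4 (GRCm38): C1QB at chr4:136880129-136886187, C1QC at chr4:136889804-136893065 and C1QA at chr4:136895917-136898803. C1QA had scaled levels of 59.8 in Control, 61.1 in BMN, 85.1 in PAZA, 62.7 in low dose and 47.2 in high dose. C1QB was at 77.9 in Control, 50.7 in BMN, 91.1 in PAZA, 66.2 in low dose and 47.3 in high dose. C1QC was lower, at 9.98 in Control, 14.2 in BMN, 14.8 in PAZA, 14.3 in low dose and 8.85 in high dose. All 3 chains were highest in PAZA and lowest in high dose, and no chain passed 2-fold in any of the 8 comparisons. With median-ratio scaling only C1QA was lowest in high dose, since C1QB was lowest in BMN, at 44.6 against 53.3 in high dose, and C1QC in Control, at 9.52 against 9.97. The 3 chains did not keep 1 ratio: C1QC over C1QB was 0.128 in Control and 0.281 in BMN.

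Among scavenger receptors and genes of resident-type macrophages, CD163, the receptor for hemoglobin bound to haptoglobin, had the highest ratio between libraries of those above 0 in every library. It had scaled levels of 3.75 in Control, 13.8 in BMN, 1.90 in PAZA, 4.15 in low dose and 6.80 in high dose, and its highest library was 7.28 times its lowest. MRC1, the mannose receptor, was at 189 in Control, 244 in BMN, 163 in PAZA, 188 in low dose and 156 in high dose. MSR1, a receptor for modified lipoproteins, lay between 58.2 in high dose and 100.5 in PAZA. MARCO, a receptor for bacteria and particles, was low, at 0.432 in Control, 1.001 in BMN, 1.68 in PAZA and 2.40 in high dose, and it was listed at 0 in low dose, where no ratio is given.

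FOLR2, a folate receptor of resident macrophages, was highest in Control at 90.9 and lower in all 4 treated libraries, at 66.9 in PAZA, 57.9 in BMN, 45.3 in low dose and 44.1 in high dose. PF4, a chemokine of platelets that resident macrophages also express, had another order, with 107 in Control, 102 in BMN, 148 in PAZA, 203 in low dose and 160 in high dose. F13A1, a transglutaminase chain found in macrophages and monocytes, was at 46.9 in Control and between 52.6 and 68.1 in the treated libraries. The 3 genes named here thus ran in different orders over the same libraries.

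Among the genes of lipid handling and the lysosome, APOE, which carries lipid out of cells, was at 142 in Control and between 180 and 206 in the treated libraries. CTSD, an aspartic protease of the lysosome, was at 74.6 in Control and between 81.5 and 102 in the treated libraries. LGMN, an endopeptidase of the lysosome, lay between 198 in high dose and 298 in BMN. TREM2, a receptor for lipids on macrophages, varied more than these, with 5.73 in Control, 6.07 in BMN, 12.999 in PAZA, 7.68 in low dose and 5.11 in high dose. Its ratio to CD68 was 0.220 in PAZA and between 0.109 and 0.119 in the other 4 libraries.

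NOS2 (inducible nitric oxide synthase) had scaled levels of 22.8 in Control, 7.08 in BMN, 13.7 in PAZA, 22.4 in low dose and 14.7 in high dose. Control and low dose were the highest and nearly level, and BMN was the lowest. CHIL3, a chitinase-like protein of alternatively activated macrophages and of some monocytes and neutrophils, was at 1.85 in Control, 7.88 in BMN, 2.51 in PAZA, 4.18 in low dose and 3.91 in high dose. Its highest library was BMN, which was the lowest for NOS2.

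The comparison of BMN with Control asks how the PARP inhibitor alone differed from no treatment. CD163 and CHIL3 showed the largest differences, each 1.64 on the log2 scale, with ratios of levels of 3.69 and 4.27. The monocyte genes LY6C2 (1.56, ratio 3.13), PLAC8 (1.496, ratio 3.23) and CCR2 (1.42, ratio 2.74) followed, then ADGRE1 (1.30, ratio 2.59). NOS2 was lower in BMN by a difference of -1.56, with Control at 3.23 times the level of BMN. In all, 6 of the 29 genes were higher past 2-fold beside 4.66% of the 13704 genes compared, and 1 was lower beside 2.25%. The median difference of the 29 was 0.28, and that of all genes was 0.09. The median of the 5 genes of the monocyte group was 1.42, and that of the 7 genes of identity and Fc receptors was 0.14. F13A1, also found in monocytes but grouped with the resident-type genes, was at 0.42.

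Markers of other tissues were also higher in BMN than in Control. All 6 fibroblast markers passed 2-fold, with a sum of 817 in BMN and 313 in Control (4 of 6 with median-ratio scaling), as did all 7 skeletal muscle markers (196 and 9.69) and 4 of 5 epidermis markers (287 and 69.7). Of the 7 leukocyte markers, 1 passed 2-fold, and their sum was 344 in BMN and 263 in Control. Macrophages and monocytes are leukocytes themselves, so a difference in their amount is in part removed on a scale relative to leukocyte markers. Relative to the median difference of those markers, the median of the 29 genes was -0.07 and that of all genes -0.26. On that scale 5 members were higher past 2-fold, all of the 6 but ADGRE1, beside 1.98% of all genes, and 1 was lower beside 5.87%. The ratio of LY6C2 to the collagen gene COL1A1, a fibroblast marker, was between 0.477 and 0.675 over all 5 libraries, that of CCR2 to COL1A1 between 1.34 and 2.54, that of PLAC8 between 0.262 and 0.683 and that of CD163 between 0.105 and 0.287. The ratio of CCR2 to CD68 was 1.53 in BMN and between 0.505 and 0.779 elsewhere. That of CD163 to PTPRC was 0.301 in BMN, 0.245 in high dose, 0.154 in low dose, 0.102 in Control and 0.0468 in PAZA. The pairs with COL1A1 were chosen after the values had been seen, and no ratio to another fibroblast marker was taken. COL1A1 had the largest difference of the 6 between BMN and Control, 1.75, and the smallest was 1.08. COL3A1, the highest fibroblast marker, was at 208 in Control and 378 in PAZA, with LY6C2 at 10.5 and 8.64. The part of the other tissues in the BMN values was not tested. In the high dose library the muscle markers summed to 214, the fibroblast markers to 350 and the epidermis markers to 12.97. CCR2 was at 34.8 and LY6C2 at 12.9 there, and the part of these tissues in those values was not tested.

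**Figure D2:**
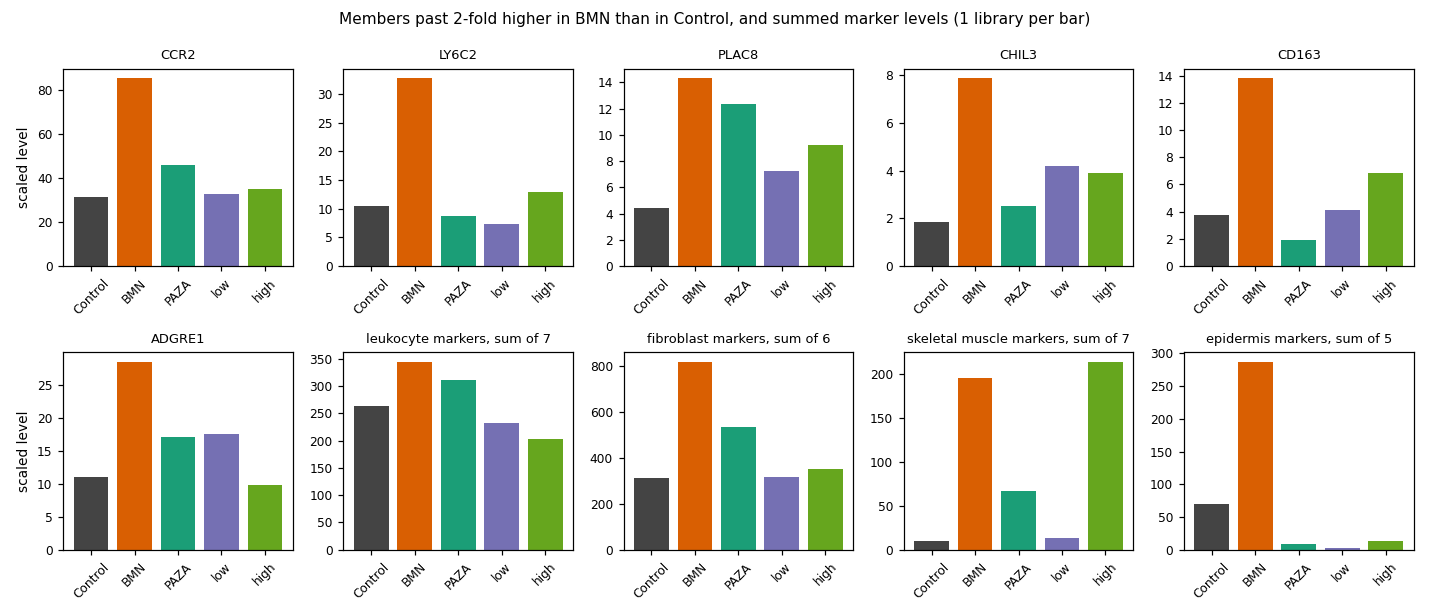
Scaled levels of the 6 genes higher past 2-fold in BMN than in Control, and summed levels of markers of leukocytes, fibroblasts, skeletal muscle and epidermis, 1 bar per library, axes from 0. The fibroblast sum was highest in BMN (817) and the muscle sum was high in both BMN (196) and high dose (214).

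The comparison of PAZA with Control asks what the azacytidine polymer alone went with. PLAC8 (difference 1.30, ratio 2.79) and TREM2 (1.06, ratio 2.27) were higher, and no member was lower past 2-fold. That is 2 of 29 beside 3.47% of the 13979 genes compared, and 0 beside 3.53%. Below 2-fold, MARCO differed by 0.90 (ratio 3.89 between low levels), LYZ2 by 0.64 and ADGRE1 by 0.59, while CD163 differed by -0.71 and NOS2 by -0.70. Of the 29 genes, 22 had a difference above 0, as had 43.6% of all genes, and the medians were 0.26 and -0.07. The leukocyte markers had a median difference of 0.39 with 6 of 7 above 0, and relative to that median 0 members were higher past 2-fold, beside 1.37% of all genes, and 2, CD163 and NOS2, were lower, beside 12.8%. Other tissues also differed: the skeletal muscle markers were higher past 2-fold in 6 of 7 (median 1.96), the epidermis markers were lower in 5 of 5 (median -2.57), and all 6 fibroblast and all 5 endothelium markers were above 0. Their part in the values of the members was not tested.

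For BMN/PAZA low dose against Control, 0 of the 29 genes were higher past 2-fold beside 3.65% of the 13832 genes compared, and 0 were lower beside 3.54%. FOLR2 was just short of 2-fold at -0.99, and it passed with the values of low dose from the other tables. PF4 was next at 0.92, then CHIL3 at 0.86 and ADGRE1 at 0.63. The differences of NOS2, MRC1 and CCR2 were -0.03, -0.01 and 0.06. The median of the 29 was 0.12 and that of all genes -0.03. The epidermis markers were lower past 2-fold in 4 of 5 (median -3.43).

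For BMN/PAZA high dose against Control, MARCO was higher (1.25, from 0.432 to 2.40) and FOLR2 was lower (-1.03, with Control at 2.06 times the level of high dose). Those are 1 of 29 beside 3.2% of the 13682 genes compared and 1 of 29 beside 4.95%. PLAC8 differed by 0.91, CHIL3 by 0.79 and CD163 by 0.72, and C1QB by -0.71, SPP1 by -0.65 and FCGR1 by -0.62. The 3 C1q chains and 6 of the 7 genes of identity and Fc receptors were below 0, where 35.5% of all genes were above 0. On the median-ratio scale 2 of the 3 chains and 2 of the 7 were below 0. The median of the 29 was -0.14 and that of all genes -0.17, so the members lay close to the genes as a whole. With median-ratio scaling the median of all genes moved to 0.0018, that of the members to 0.06, and FOLR2 (-0.79) no longer passed 2-fold. The leukocyte markers had a median of -0.28 with 5 of 7 below 0 (-0.04 and 4 of 7 with median-ratio scaling), the muscle markers were higher past 2-fold in 7 of 7 (median 3.66) and the epidermis markers lower in 5 of 5 (median -2.29). Their part in the values of the members was not tested. Relative to the leukocyte median, 3 members, MARCO, CHIL3 and PLAC8, were higher past 2-fold beside 5.99% of all genes, and 0 were lower beside 2.24%.

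**Figure D3:**
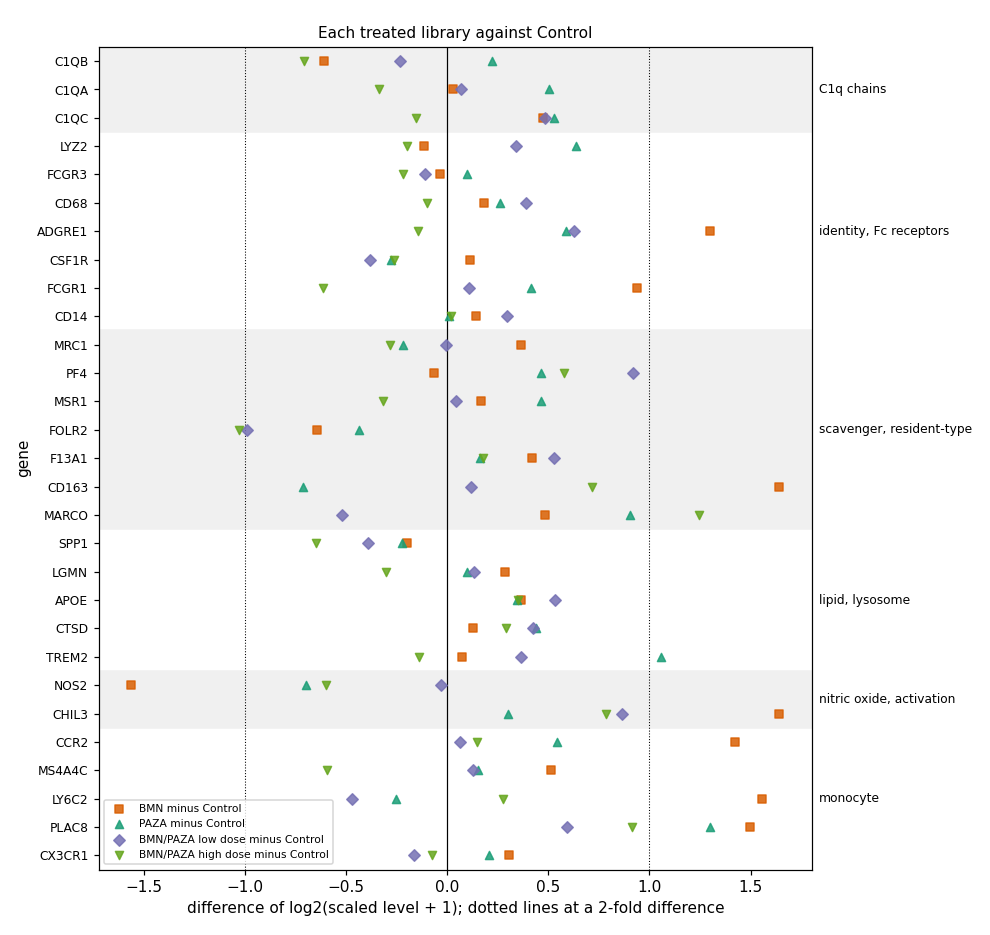
Difference of log2(scaled level + 1) of each treated library from Control for the 29 genes, 1 symbol per treated library, with dotted lines at a 2-fold difference. Symbols beyond the right line are 6 of BMN, 2 of PAZA and 1 of high dose, and those beyond the left line are NOS2 in BMN and FOLR2 in high dose.

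All 4 comparisons above use the same Control library, so a single value of Control enters each of them. The comparisons below share the BMN, low dose and high dose libraries in the same way, and they are no independent support for those above.

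BMN/PAZA low dose against BMN asks how the combination at its low dose differed from BMN alone. LY6C2 had the largest difference, -2.03, with BMN at 4.50 times the level of low dose. CD163 (-1.53, BMN at 3.33 times) and CCR2 (-1.36, BMN at 2.62 times) were also lower, and MARCO, listed at 0 in low dose, only just passed at -1.001. NOS2 (1.53, ratio 3.16) was higher. These were 1 of 29 higher beside 3.22% of the 13885 genes compared and 4 of 29 lower beside 5.86%. All 5 genes of the monocyte group were below 0, with a median of -0.90, whereas the 3 C1q chains had differences of 0.01 to 0.38. F13A1, also found in monocytes but grouped with the resident-type genes, was at 0.11. The median of the 29 was -0.15 and that of all genes -0.14. With median-ratio scaling they were 0.05 and 0.02, PF4 also was higher past 2-fold, and LY6C2 (-1.83), CD163 (-1.34) and CCR2 (-1.16) were still lower past 2-fold, while MARCO (-0.91) was not. Relative to the leukocyte median the same 3 genes were lower, beside 2.19% of all genes, and NOS2 and PF4 were higher, beside 7.88%. In the same comparison the fibroblast markers had a median difference of -1.24 with 4 of 6 lower past 2-fold, the muscle markers were lower past 2-fold in 7 of 7, the epidermis markers in 5 of 5 (median -5.40) and the leukocyte markers in 1 of 7. Their part in the lower monocyte genes was not tested.

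BMN/PAZA high dose against BMN gave 0 genes higher past 2-fold beside 2.33% of the 13639 genes compared and 5 of 29 lower beside 6.89%. The 5 were FCGR1 (-1.55), ADGRE1 (-1.44), LY6C2 (-1.28), CCR2 (-1.27) and MS4A4C (-1.11). BMN stood at 3.23 times the level of high dose for FCGR1 and at 2.22 times for MS4A4C. NOS2 (0.96) was on the other side, just below 2-fold. Of the 29 genes 4 were above 0, as were 28.03% of all genes, and the median was -0.38 against -0.27 over all genes, which became -0.04 and -0.00083 with median-ratio scaling, where 8 of the 29 changed sign. All 7 leukocyte markers were below 0 as well, with a median of -0.71, the fibroblast markers had a median of -1.05 with 4 of 6 lower past 2-fold, and the epidermis markers one of -4.29 with 5 of 5 lower. The muscle markers had a median of 0.16. The neutrophil markers had one of 1.12, with 3 of 5 higher past 2-fold beside 2.33% of all genes. With median-ratio scaling their median was 1.22, with 3 of 5 higher beside 4.27%. With median-ratio scaling 0 of 6 fibroblast markers passed 2-fold (median -0.71), and 4 of 7 leukocyte markers were below 0 (median -0.36). The part of these tissues in the values of the members was not tested. Relative to the leukocyte median none of the 5 was lower past 2-fold, and 0 members were, beside 1.05% of all genes. On that scale 3 members, NOS2, MARCO and PF4, were higher beside 13.2%, and the median of the 29 was 0.33 against 0.44 over all genes. With median-ratio scaling ADGRE1 and FCGR1 were still lower past 2-fold, LY6C2 (-0.94), CCR2 (-0.92) and MS4A4C (-0.76) were not, and NOS2 was higher past 2-fold.

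BMN/PAZA low dose against PAZA gave 0 genes higher past 2-fold beside 2.45% of the 13885 genes compared and 1 lower, MARCO, beside 2.78%. CD163 was at 0.83 and NOS2 at 0.67, while PLAC8 was at -0.70, TREM2 at -0.69 and FOLR2 at -0.55. All 5 genes of the monocyte group and all 3 C1q chains were below 0. F13A1, also found in monocytes but grouped with the resident-type genes, was at 0.37. The median of the 29 was -0.11 and that of all genes 0.03. The leukocyte markers had a median of -0.44 with 6 of 7 below 0. The muscle markers were lower past 2-fold in 6 of 7 (median -1.97), and all 6 fibroblast, all 5 endothelium and all 5 T cell markers measured were below 0. Their part in the values of the members was not tested. Relative to the leukocyte median, 2 members, CD163 and NOS2, were higher past 2-fold beside 10.2% of all genes, and 0 were lower beside 0.886%.

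BMN/PAZA low dose against high dose compares the dose of the combination. Again 0 genes were higher past 2-fold beside 3.38% of the 13979 genes compared, and 1 was lower beside 2.34%, which was MARCO, listed at 0 in low dose. ADGRE1 differed by 0.77, FCGR1 and MS4A4C by 0.72 each and C1QC by 0.64, and LY6C2 by -0.75 and CD163 by -0.60. All genes of the C1q and the lipid and lysosome groups were above 0, as were NOS2 and CHIL3, though CTSD and CHIL3 turned below 0 with median-ratio scaling. Of the 5 genes of the monocyte group 4 were below 0, while F13A1, grouped with the resident-type genes, was at 0.35. In all 22 of the 29 were above 0, as were 65.5% of all genes, and the medians were 0.28 and 0.13 (0.14 and 0.01 with median-ratio scaling). Relative to the leukocyte median, 0 members were higher past 2-fold beside 1.45% of all genes, and 2, LY6C2 and MARCO, were lower beside 4.85%. The medians were then -0.01 and -0.16. The leukocyte markers had a median of 0.29 with 5 of 7 above 0, the muscle markers were lower past 2-fold in 7 of 7 (median -3.39) and the epidermis markers in 3 of 5. Their part in these values was not tested.

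**Figure D4:**
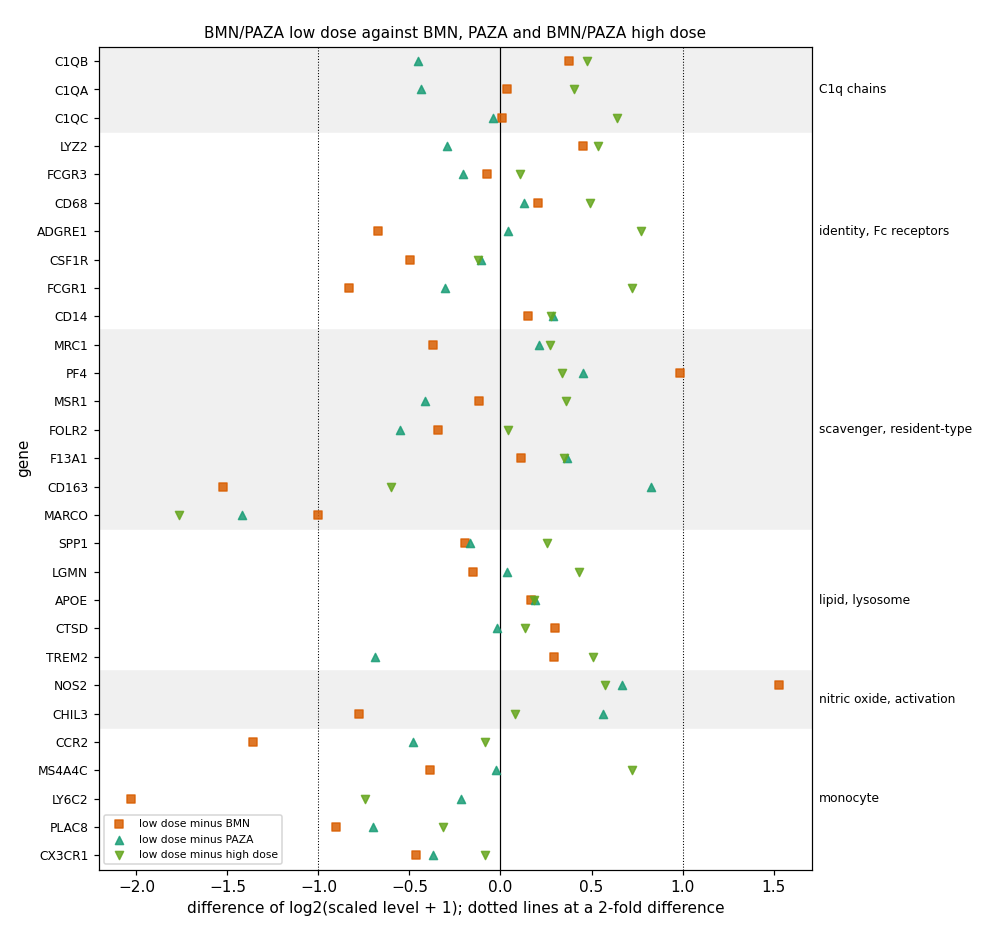
Difference of log2(scaled level + 1) of BMN/PAZA low dose from BMN, PAZA and BMN/PAZA high dose for the 29 genes, with dotted lines at a 2-fold difference. NOS2 lies past the right line against BMN, and LY6C2, CD163 and CCR2 past the left line against BMN. MARCO, listed at 0 in low dose, lies past the left line against PAZA and high dose and just past it, at -1.001, against BMN.

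Higher and lower genes were not balanced over the whole table, and this balance moved with the scaling. With median-ratio scaling, 4.17% of all genes were higher and 2.75% lower in PAZA against Control, 3.73% and 2.52% in BMN against Control, 4.24% and 2.92% in low dose against Control and 4.69% and 2.98% in high dose against Control. The shares were 4.79% and 3.26% for low dose against BMN, 4.27% and 3.04% for high dose against BMN, 2.36% and 2.99% for low dose against PAZA and 2.54% and 3.13% for low dose against high dose. The 6 genes higher and the 1 lower in BMN against Control, and the 2 higher in PAZA against Control, were the same genes on this scale.

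The ligands of these receptors were measured in the same libraries. CCL2, the main ligand of CCR2, had a scaled level of 264 in Control, 182 in BMN, 224 in PAZA, 248 in low dose and 228 in high dose. Control was thus above BMN, the reverse of the receptor. CCL7 and CCL12, which also bind CCR2, were higher in BMN than in Control, with CCL7 at 114 in Control and 148 in BMN and CCL12 at 63.6 and 103. CSF1, a ligand of CSF1R, was at 62.1 in Control, 89.2 in BMN, 41.1 in PAZA, 53.7 in low dose and 46.6 in high dose. Its second ligand, IL34, was at 1.15 in Control, 1.08 in BMN, 2.65 in PAZA, 2.33 in low dose and 6.54 in high dose. CX3CL1, the ligand of CX3CR1, lay between 0.166 and 1.92. Of the 8 ligands listed, 0 were higher past 2-fold in BMN against Control, beside 4.66% of all genes, and 2 were lower beside 2.25%. The 2 were CSF2, a growth factor of myeloid cells, at 8.89 in Control and 1.64 in BMN, and the chemokine CCL8, at 70.8 and 29.9. In high dose against Control 1 was higher, IL34, beside 3.2% of all genes, and 1 was lower, CCL8 at 32.6 in high dose, beside 4.95%, and CCL8 no longer passed with median-ratio scaling. In PAZA and in low dose against Control 0 passed.

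Transcription factors of the lineage were also measured. SPI1, which encodes PU.1, had scaled levels of 17.7 in Control, 26.4 in BMN, 26.4 in PAZA, 16.2 in low dose and 22.9 in high dose. Of the 9 factors listed, 1 was higher past 2-fold in BMN against Control, beside 4.66% of all genes. It was KLF4, with levels of 3.35 in Control, 9.76 in BMN, 4.13 in PAZA, 2.74 in low dose and 1.71 in high dose. KLF4 is also a factor of the epidermis, whose markers summed to 69.7, 287, 8.001, 2.99 and 12.97 in the same order, and their part in the KLF4 values was not tested. In low dose against BMN 2 were lower, KLF4 and NR1H3, beside 5.86% of all genes, and in high dose against BMN 1 was lower, KLF4, beside 6.89%. The other 5 comparisons had 0 in either direction. MAF, a factor of resident-type macrophages and the highest of the list, was at 46.0 in Control, 67.7 in BMN, 44.3 in PAZA, 38.1 in low dose and 39.999 in high dose.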

How the data were processed

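RNA of 5 libraries, 1 per group by the labels, was analysed. The submitters' processing notes name HISAT2, StringTie and GRCm38, with tool versions not given in the sources used here. The authors deposited 5 tables of 2 libraries each, in which no unit is stated, and the form of the deposited values led to their reading as FPKM. Depth is unknown. Control and PAZA were taken from their shared table, BMN and high dose from theirs, and low dose from the table with high dose. Where a symbol repeated, the row with the highest mean was used. Each column was scaled to the same sum over 13979 shared symbols. Between tables, the values of BMN had a ratio of 1 in all genes and those of high dose in all but 1 gene. The median ratio was 0.987 for PAZA, with 351 of 18320 genes off it by more than 0.5%, and 3.26, 3.41 and 1.05 for low dose, with 378, 225 and 416 genes off. No member with a level above 0 was off.

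Differences were taken on log2(scaled level + 1), with calls past 2-fold and genes at 0 in both libraries left out. No test was run, with 1 library per group. Of 30 genes listed, 1 is not reported here, and the other 29 are all named, and of other lists the gene with the highest mean or one that a result turns on. The members and lists were chosen with earlier results of these data known. The scaling and differences were run on simulated data without noise, in genes of higher level only, with calls made after centering on the median difference. That run could not check calls of low genes or the uncentered calls used here. Alternatives are given in the closing section. Promoters were from RefSeq (GRCm38.p6), with 23 of 29 members matched, and gene positions from the GRCm38 annotation. Computation was in Python 3.11.15 with pandas 2.3.3 and numpy 2.4.6, and plots were drawn in matplotlib 3.10.9.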

Additional observations from a re-analysis of the deposited data

How the results depend on the processing

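Each group had 1 library and the tables hold no counts, so the depth behind low genes such as MARCO and CX3CR1 is unknown, and no result has a measure of error. No paired analysis was possible because each group has 1 library. Leaving out a replicate was not possible for the same reason. For the values that moved, the cause was not tested.

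With a pseudocount of 0.1, MARCO was added to the higher members in PAZA and in BMN against Control (3 and 7 members, beside 10.5% and 11.95% of all genes), and the counts of members past 2-fold became 1 higher and 2 lower in low dose against Control (10.9% and 7.87% of all genes), 3 higher in high dose against Control (8.70%), 1 higher and 2 lower in low dose against PAZA (9.54% and 7.35%) and 2 higher in high dose against BMN (5.91%). With a mean level of at least 1, low dose against PAZA had 0 lower, since MARCO was left out. With values of the other tables, and with low dose from the table with BMN, low dose against Control had 1 lower, FOLR2 (3.45% and 3.71% of all genes). With median-ratio scaling, the members' median turned to 0.0616 in high dose against Control and to 0.0486 in low dose against BMN, and moved to -0.0393 in high dose against BMN. On that scale low dose against Control had 1 higher (PF4), high dose against Control 2 higher and 0 lower, low dose against BMN 2 higher, and high dose against BMN 1 higher and 2 lower. Summing the rows of a symbol changed no median's sign and no count by over 1.5 times. MARCO in low dose against BMN passed 2-fold neither with those sums (-0.999) nor with median-ratio scaling (-0.912), and the level filter left it out. No member was off the constant between tables, so leaving out such members could change nothing.

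Differences relative to the median of the leukocyte markers were added after seeing the data. This moves all genes alike, and it removes part of any difference in the amount of macrophages and monocytes, which are leukocytes themselves. The members' median, with that of all genes after it, was then -0.123 and -0.453 in PAZA against Control, -0.0667 and -0.257 in BMN against Control, 0.13 and 0.102 in high dose against Control, 0.19 and 0.208 in low dose against BMN, 0.331 and 0.469 in low dose against PAZA, -0.0123 and -0.162 in low dose against high dose and 0.33 and 0.44 in high dose against BMN. The members past 2-fold were 0 higher and 2 lower in PAZA against Control (1.37% and 12.8% of all genes), 3 higher and 0 lower in high dose against Control (5.99% and 2.24%), 2 higher and 3 lower in low dose against BMN (7.88% and 2.19%), 2 higher and 0 lower in low dose against PAZA (10.2% and 0.886%), 2 lower in low dose against high dose (4.85%) and 3 higher and 0 lower in high dose against BMN (13.2% and 1.05%). Of the 6 genes higher in BMN than in Control, 5 were higher past 2-fold on this scale too, all but ADGRE1 (1.98% of all genes), and 6 of 6 under each of the other alternatives run for that comparison.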

Other observations

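Other genes of macrophages gave these values. Among 9 further lysosomal genes, GPNMB, a glycoprotein of lipid-laden macrophages that tumor cells can also express, had a scaled level of 35.6 in Control and between 12.8 and 17.0 in the 4 treated libraries, and was lower past 2-fold in each of the 4 comparisons with Control. With median-ratio scaling it passed in PAZA and BMN (-1.25 and -1.51), and not in low dose and high dose (-0.94 and -0.90). CTSH, a cysteine protease, was at 67.6 in PAZA, 21.4 in Control and between 29.7 and 39.2 in the other 3. CTSL, the most abundant of this list, was at 3594 in Control, 4560 in BMN, 4087 in PAZA, 3700 in low dose and 2713 in high dose. These genes were named after their values had been seen.

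Of 8 cytokine genes of macrophages, IL1B was at 28.7 in Control, 49.8 in BMN, 49.6 in PAZA, 27.9 in low dose and 18.8 in high dose. VEGFA, which many tumor cells make, was at 65.9 in Control, 32.4 in BMN, 47.0 in PAZA, 50.5 in low dose and 33.6 in high dose. TNF, IL6, IL10 and IL12B were at 3.25 or less in every library.

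Neutrophils carry some of the same genes. Of 8 neutrophil markers, 5 were among the shared symbols, and their summed level was 72.8 in Control, 64.6 in BMN, 124 in PAZA, 122 in low dose and 233 in high dose. S100A8 and S100A9, calcium-binding proteins of neutrophils and monocytes, made up most of each sum. In high dose against Control 3 of the 5, S100A8, S100A9 and RETNLG, were higher past 2-fold, beside 3.2% of all genes. The same 3 passed with median-ratio scaling, beside 4.69%. RETNLG was at 0 in Control and 1.18 in high dose. CSF3R, at 2.71 and 2.64, and CXCR2, at 3.42 and 4.55, did not pass. The high dose library held the lowest level of 15 of the 29 macrophage and monocyte genes, and of 6 with median-ratio scaling. Markers of dendritic cells summed to between 5.41 and 8.18, those of T cells to between 3.08 and 10.99 and those of B cells to between 0 and 2.21. Markers of endothelium summed to between 35.9 and 61.5, those of adipocytes to between 44.2 and 114 and those of proliferation to between 658 and 899.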
